A study of Mus musculus with 24 samples.

Results

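The macrophage and myeloid genes of the mouse kidney were described here as a set of 34 named genes, from 18782 genes measured on the array. A gene belonged to the set by its symbol alone, and its probe set was the one that carried that single symbol. Each of the 34 had exactly 1 such probe set. Kidneys came from 24 mice at 12 weeks of age, with 1 array per mouse. There were 4 groups of 6 mice, males and females of BPN/3J and of BPH/2J, where BPH/2J is the Schlager hypertensive strain and BPN/3J the normotensive strain bred beside it. None of the groups received a treatment or carried a transgene. Each strain is a single inbred line, so any difference between BPH/2J and BPN/3J covers every locus that differs between them, and it cannot be told apart from the difference in blood pressure, which was not recorded in the array mice. Expression is given as log2 RMA values, and levels of different genes were not compared because each probe set has its own response.

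Resident macrophages lie between the tubules and capillaries of the kidney, where they take up debris, sample antibody-coated particles and release complement and reactive oxygen. They depend on the receptor *Csf1r* for survival and on the transcription factor *Spi1* (PU.1) for their identity. Their surface carries adhesion receptors such as *Adgre1*, Fc receptors for antibody and receptors for microbial products. Several of these genes are not private to macrophages: *Ptprc* marks all leukocytes, *Fcgr2b* is also made by B cells and by sinusoidal endothelium, and *Cyba* also serves oxidases of kidney tubules.

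The members did not all move the same way between the strains. In males, 13 of the 34 genes differed between BPH/2J and BPN/3J in limma (adjusted p under 0.05, by Benjamini-Hochberg), which is 38.2% of them, against 15.2% of all 28853 probe sets. Of these, 11 were lower in BPH/2J, where 7.7% of all probe sets were lower, and 2 were higher, where 7.48% of all were higher. In females 8 of the 34 differed (23.5%, against 14.5% of all probe sets), with 7 lower (6.48% of all) and 1 higher (8.01% of all). The remaining 21 genes in males and 26 in females did not pass the test. The calls leaned towards lower expression in the hypertensive strain in each sex.

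The 7 genes that fell in BPH/2J in both sexes were *Adgre1*, *Adgre5*, *Clec7a*, *Nlrc4*, *Cybb*, *C1qb* and *C1qc*. They are 20.6% of the 34, and 3.9% of all probe sets fell in both sexes. *Fcgr2b* was the only member that rose in both sexes, 2.94% of the 34 against 4.19% of all probe sets. A further 5 genes (*Itgax*, *Csf1r*, *Cd14*, *Ctss* and *Mpeg1*) passed in males and not in females, and no gene passed in females alone. No gene passed in opposite directions, and 21 passed in neither sex. The 2 strain comparisons used different mice.

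Most of the members lay within 0.25 of no difference, a smaller share than of all probe sets, and 2 sat far away. The median difference over the 34 was -0.10 in males and -0.06 in females, against 0.00 and 0.02 over all probe sets. *Adgre5* and *Nlrc4* were the only members past 1 on the log2 scale, in both sexes. Without them the median was -0.08 in males and -0.04 in females, and 20 genes in males and 21 in females lay within 0.25 of no difference. That is 58.8% and 61.8% of the 34, where 88.7% and 88.2% of all probe sets lay this close. Means were lower in BPH/2J for 23 of the 34 in each sex, and for 17 of them (50% of the set, 29.7% of all probe sets) in both. The median was below 0 in each sex, 11 members were higher in BPH/2J in each sex, and no test of the set was run. The female median lay between -0.10 and -0.03 without 1 array and was -0.13 with dim probe sets left out. In whole kidney, fewer macrophages and less RNA of a gene per macrophage cannot be told apart.

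**Figure D1:**
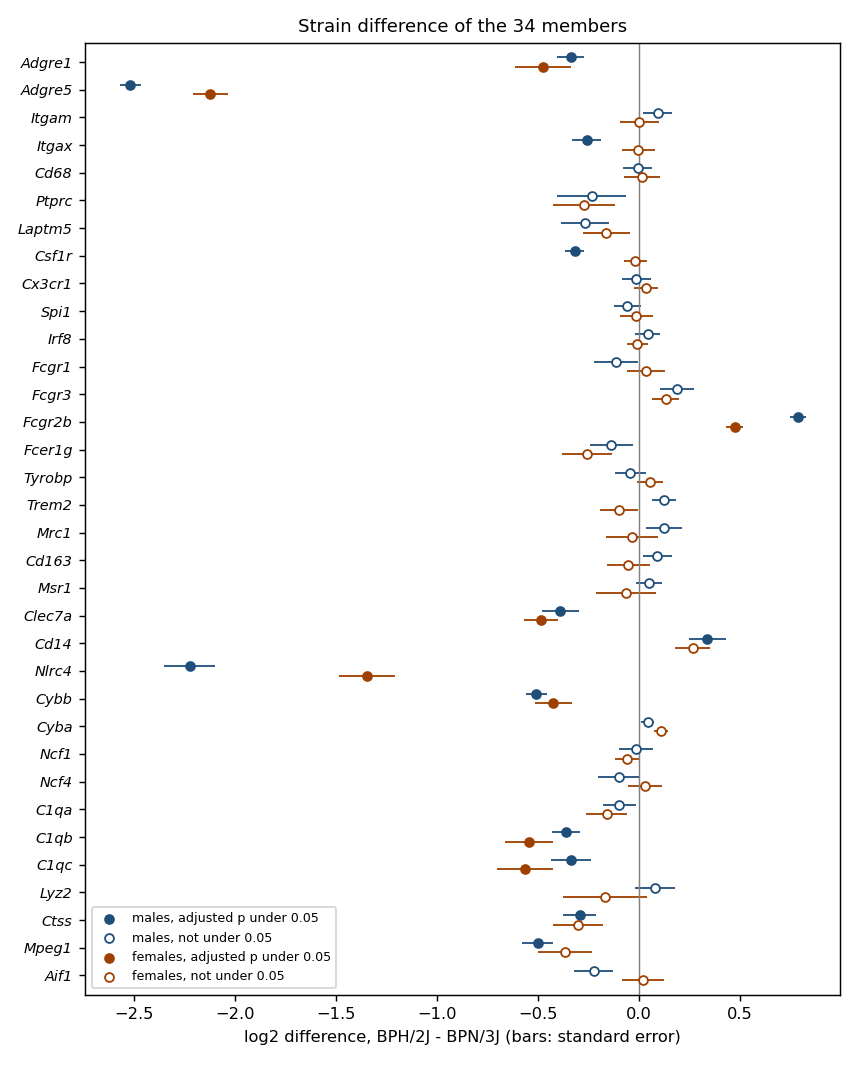
Strain difference of each of the 34 members, with the log2 difference BPH/2J minus BPN/3J on the horizontal axis, points for males (dark blue) and females (brown), bars for the standard error, and filled points where the adjusted p was under 0.05. Most points lie between -0.5 and 0.3, *Adgre5* and *Nlrc4* lie beyond -1 in both sexes, and *Fcgr2b* lies on the higher side.

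Some arrays stood apart in markers of other cells. Calls of members lost without the 2 arrays richest in hepatocyte genes, or without the 5 richest in B cell genes, are named beside the result. Within a group, any pair of arrays had r between 0.981 and 0.997 across probe sets, and array medians were 6.89 to 6.97. The BPN/3J female arrays 2 and 5 had a mean of 11.47 and 11.77 over 23 measured hepatocyte genes, where the other 4 arrays of that group had at most 7.48. Their mean over 6 Kupffer cell genes, the macrophages of the liver, was 6.25 and 6.63, and their mean over the 34 members was 7.70 and 7.63, inside the group's range of 7.39 to 7.74. The hepatocyte mean also reached 8.81 in BPN/3J males, 9.50 in BPH/2J males and 9.57 in BPH/2J females. Adrenal cortex means ran from 5.42 to 9.91 over the arrays. No fit left out these other arrays as a set, and the hepatocyte and adrenal means were entered as covariates instead. A separate group of 5 arrays stood above a mean of 6.2 over 8 B cell genes: BPN/3J males 5 and 6, BPH/2J male 4, BPN/3J female 1 and BPH/2J female 3. The other 19 arrays lay between 5.57 and 6.10. The highest was BPH/2J male 4, with 6.96 for B cells and 6.74 for T cells. Kidney identity was plain throughout, since the mean of 8 proximal tubule genes was 12.57 to 12.77 in all 24 arrays. Among the defining macrophage genes *Csf1r* lay between 9.61 and 10.23 and *Adgre1* between 6.54 and 7.97, which do not measure how many macrophages the tissue held. A further limit is that 8 members, among them *Nlrc4*, *Itgax* and *Cd163*, had a mean in the dimmest 40% of probe sets.

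**Figure D2:**
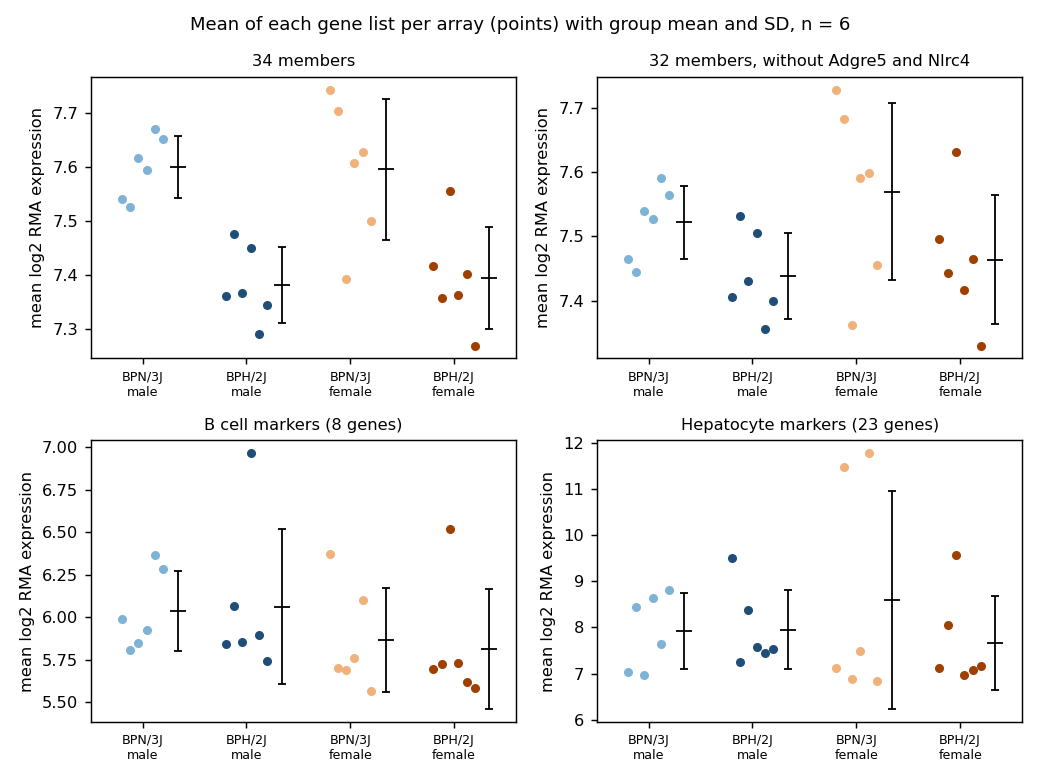
Mean log2 RMA expression per array (points) in the 4 groups with the group mean and SD (bars, n = 6) for the 34 members, for the 32 members without *Adgre5* and *Nlrc4*, for 8 B cell genes and for 23 hepatocyte genes. The members' means do not overlap between strains in males (7.53 to 7.67 in BPN/3J, 7.29 to 7.48 in BPH/2J) and overlap in females, and the 2 liver-rich arrays stand alone in the BPN/3J females.

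The mean over the 34 members was 7.60 ± 0.06 in BPN/3J males and 7.38 ± 0.07 in BPH/2J males (SD, n = 6). In females it was 7.60 ± 0.13 in BPN/3J and 7.39 ± 0.09 in BPH/2J. The ranges did not overlap in males and did in females, where BPN/3J arrays ran from 7.39 to 7.74 and BPH/2J arrays from 7.27 to 7.56. Over the 32 members without *Adgre5* and *Nlrc4* the ranges overlapped in males too, at 7.44 to 7.59 and 7.36 to 7.53. No test was run on these means, because the genes were chosen with earlier results known.

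Promoter sequences are shown for 5 of the members that differed by strain in both sexes. Some of the genes that fell (*C1qb*, *C1qc*, *Cybb*, *Nlrc4*) can thus be read beside the gene that rose (*Fcgr2b*). Each sequence is the 250 bases before the transcription start in the RefSeq annotation of the mouse reference (GRCm38.p6), on the minus strand of the chromosome. They lie at chr4:136886201-136886450, chr4:136892915-136893164, chrX:9469325-9469574, chr17:74459109-74459358 and chr1:170976072-170976321 in the order printed. Capitals mark matches to GAGGAA, 1 form of the purine-rich site bound by PU.1, or its reverse complement TTCCTC. Other forms of the site were not searched.
C1qb: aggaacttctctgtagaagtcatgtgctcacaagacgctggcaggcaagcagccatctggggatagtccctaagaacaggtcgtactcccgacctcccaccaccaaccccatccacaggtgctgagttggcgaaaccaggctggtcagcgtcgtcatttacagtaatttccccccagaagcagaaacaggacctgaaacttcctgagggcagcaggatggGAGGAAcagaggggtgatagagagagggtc
C1qc: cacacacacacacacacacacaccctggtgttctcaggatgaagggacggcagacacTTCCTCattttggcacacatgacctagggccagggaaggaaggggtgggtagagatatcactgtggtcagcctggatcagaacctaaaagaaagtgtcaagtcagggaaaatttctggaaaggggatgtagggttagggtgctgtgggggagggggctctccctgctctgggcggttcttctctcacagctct
Cybb: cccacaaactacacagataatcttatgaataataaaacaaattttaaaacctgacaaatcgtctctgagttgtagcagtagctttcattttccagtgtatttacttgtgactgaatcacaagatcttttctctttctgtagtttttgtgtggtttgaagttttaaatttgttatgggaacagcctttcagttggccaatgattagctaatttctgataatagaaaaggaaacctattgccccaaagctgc
Nlrc4: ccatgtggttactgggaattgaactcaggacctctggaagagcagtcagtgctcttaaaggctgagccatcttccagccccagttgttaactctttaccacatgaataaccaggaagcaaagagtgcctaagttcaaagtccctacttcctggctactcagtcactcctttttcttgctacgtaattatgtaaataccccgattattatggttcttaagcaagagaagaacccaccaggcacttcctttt
Fcgr2b: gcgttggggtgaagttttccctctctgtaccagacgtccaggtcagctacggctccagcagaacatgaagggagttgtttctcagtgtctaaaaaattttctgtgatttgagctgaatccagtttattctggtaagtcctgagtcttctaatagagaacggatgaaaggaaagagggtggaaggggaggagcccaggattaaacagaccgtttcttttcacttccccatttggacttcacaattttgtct
*C1qb* held 1 match, 25 bases before the start on the gene's own strand, and *C1qc* held 1 match on the opposite strand, 188 bases before it. The other 3 windows held no match of this form, and shorter or variant sites in them were not counted. Over all 32851 promoter windows of this length, 7639 (23.3%) held a match on either strand. There were 29 windows for 25 of the 34 members, and 15 of those windows, from 13 genes, held a match. The windows of *Clec7a*, which also fell in both sexes and is not shown, held a match 91 or 85 bases before the start. *Adgre1* and *Adgre5* had no window. A match is a run of letters in the reference genome, and neither BPH/2J nor BPN/3J sequence was read.

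Among the 7 adhesion and surface genes, *Adgre5* showed the largest strain difference of the whole set. It encodes CD97, an adhesion G protein-coupled receptor of leukocytes that binds the complement regulator CD55. In males its lowest, median and highest values were 10.12, 10.22 and 10.36 in BPN/3J and 7.63, 7.72 and 7.83 in BPH/2J. In females they were 9.55, 9.76 and 9.84 in BPN/3J and 7.39, 7.62 and 7.91 in BPH/2J. All 12 BPN/3J arrays lay more than 1 log2 unit above all 12 BPH/2J arrays. A sequence difference between the strains under the probes and a difference in transcript level cannot be told apart on arrays. The difference was -2.52 in males (SE 0.0518, adjusted p = 1.66e-12 in limma), or 5.73-fold lower, and -2.12 in females (SE 0.0865, adjusted p = 1.76e-09), or 4.35-fold lower.

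*Adgre1*, the classical surface marker of mouse macrophages and a relative of *Adgre5*, fell far less. Its lowest, median and highest values in males were 6.80, 6.96 and 7.20 in BPN/3J and 6.54, 6.61 and 6.76 in BPH/2J, with no overlap. In females they were 6.88, 7.27 and 7.97 against 6.69, 6.82 and 6.95, and the groups overlapped. The difference was -0.34 in males (SE 0.0655, adjusted p = 0.00271 in limma) and -0.48 in females (SE 0.138, adjusted p = 0.0355). The female result was not past the threshold without the liver-rich BPN/3J arrays 2 and 5, where it was -0.48 with an adjusted p of 0.098. It remained past it without the B cell-rich arrays (-0.37, adjusted p = 0.0131), one of which, BPN/3J female 1, was the highest array.

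The other surface genes gave smaller differences or none that passed. *Itgax*, the CD11c chain of an integrin of dendritic cells and macrophages, ran from 5.927 to 6.195 in BPN/3J males and from 5.62 to 6.01 in BPH/2J males, a difference of -0.26 (SE 0.0701, adjusted p = 0.0225 in limma). Its male call was lost in 4 of 15 alternatives, among them leaving out 1 array. In females both strains lay between 5.48 and 5.94. *Cd68*, a lysosomal membrane protein used as a pan-macrophage marker, had means of 7.49 in males of either strain, 7.38 in BPN/3J females and 7.39 in those of BPH/2J. *Itgam*, the CD11b integrin chain of myeloid cells, had means of 6.204 in BPN/3J males, 6.296 in BPH/2J males and 6.26 in females of either strain. These 2 widely used markers gave strain differences of -0.01 and 0.09 in males and 0.01 and 0.00 in females, and neither passed (adjusted p between 0.474 and 0.996 in limma). The sign of the *Cd68* and female *Itgam* differences turned under other settings.

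*Ptprc*, the CD45 phosphatase of all leukocytes, was high in the lymphocyte-rich arrays. *Ptprc* was 7.23, 7.31 and 8.36 (lowest, median, highest) in BPH/2J males and 7.52, 7.73 and 7.93 in BPN/3J males. The value of 8.36 came from BPH/2J male 4, the array highest in B cell and T cell genes, and the next array of that group was at 7.55. The difference over all arrays was -0.23 in males (adjusted p = 0.44 in limma) and -0.27 in females (adjusted p = 0.3). Without the 5 B cell-rich arrays it was -0.32 with an adjusted p of 0.0375 in males and -0.29 with an adjusted p of 0.0819 in females. *Laptm5*, a lysosomal protein of blood cells, differed by -0.27 in males and -0.16 in females, with adjusted p of 0.168 and 0.44.

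Of the 2 growth factor and chemokine receptors, *Csf1r* differed by strain in males. *Csf1r* is the receptor for the survival factors *Csf1* and *Il34*. Its lowest, median and highest values in males were 9.96, 10.03 and 10.12 in BPN/3J and 9.61, 9.71 and 9.87 in BPH/2J. The male groups did not overlap, and the difference was -0.32 (SE 0.0462, adjusted p = 0.000289 in limma). In females the values were 9.98, 10.15 and 10.21 in BPN/3J and 9.90, 10.14 and 10.23 in BPH/2J, with a difference of -0.02 (SE 0.0566, adjusted p = 0.888). BPH/2J males thus stood below all other 18 arrays. The 2 strain differences themselves differed by 0.30 (SE 0.0719, adjusted p = 0.0269 for the strain-by-sex interaction in limma). *Cx3cr1*, the fractalkine receptor of resident macrophages and monocytes, differed by -0.01 in males and 0.03 in females and did not pass.

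Neither transcription factor passed the strain test. *Spi1*, which encodes PU.1, differed by -0.06 in males and -0.01 in females (adjusted p = 0.641 and 0.937 in limma). *Irf8*, a partner of PU.1 in monocyte and macrophage development, differed by 0.04 in males (adjusted p = 0.725 in limma) and -0.01 in females (adjusted p = 0.943), and differed by sex as described further on.

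Among the 6 Fc receptors and their adaptors, *Fcgr2b* rose in BPH/2J and the others did not pass. *Fcgr2b* encodes the inhibitory Fc gamma receptor, which carries an inhibitory motif and dampens signals of the activating receptors. Its lowest, median and highest values in males were 9.32, 9.38 and 9.51 in BPN/3J and 10.12, 10.18 and 10.22 in BPH/2J. In females they were 9.40, 9.52 and 9.61 in BPN/3J and 9.93, 9.99 and 10.06 in BPH/2J. The strains did not overlap in either sex. The difference was 0.79 in males (SE 0.0402, adjusted p = 1.09e-08 in limma), or 1.72-fold, and 0.47 in females (SE 0.0426, adjusted p = 5.61e-06), or 1.39-fold. No B cell gene passed the strain test in either sex, 0 of 8 measured, and the *Fcgr2b* difference was 0.78 and 0.46 without the B cell-rich arrays. The mean over those 8 genes had an SD of 0.23 to 0.45 within groups, and the part of B cells in the *Fcgr2b* difference was not tested. Of 8 endothelial genes *Pecam1*, an adhesion molecule of all endothelium, rose in both sexes, by 0.30 and 0.25 (adjusted p = 9.5e-05 and 0.00213), and the other 7 did not pass. The mean over the 8 was 9.86 to 9.99 and 9.92 to 9.98 in BPN/3J and BPH/2J males and 9.98 to 10.12 and 9.99 to 10.12 in females, and the part of endothelium in the *Fcgr2b* difference was not tested. *Fcgr2b* and *Fcgr3* are near-identical over much of their extracellular part, and signal may be shared between them. Of the activating receptors, *Fcgr1* differed by -0.11 in males and 0.03 in females and *Fcgr3* by 0.19 and 0.13. The adaptors *Fcer1g* and *Tyrobp* and the lipid receptor *Trem2* lay between -0.26 and 0.12. The smallest adjusted p among these 5 was 0.17.

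The scavenger, lectin and pattern recognition receptors also included a large difference. *Nlrc4* encodes the scaffold of the inflammasome that senses bacterial flagellin and secretion systems through NAIP proteins. Its lowest, median and highest values in males were 7.19, 7.48 and 7.81 in BPN/3J and 4.85, 5.25 and 5.63 in BPH/2J. In females they were 5.91, 6.41 and 6.66 in BPN/3J and 4.63, 5.01 and 5.30 in BPH/2J. The strains did not overlap in either sex, and the male BPN/3J arrays were above all others. The difference was -2.22 in males (SE 0.126, adjusted p = 3.29e-08 in limma), or 4.67-fold lower, and -1.35 in females (SE 0.14, adjusted p = 2.05e-05), or 2.54-fold lower.

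*Clec7a*, which encodes the beta-glucan receptor dectin-1, fell in both sexes. It was 6.28, 6.54 and 6.71 (lowest, median, highest) in BPN/3J males and 5.78, 6.17 and 6.32 in BPH/2J males, and 6.33, 6.45 and 6.75 in BPN/3J females and 5.72, 6.03 and 6.19 in BPH/2J females. The difference was -0.39 in males (SE 0.0919, adjusted p = 0.0105 in limma) and -0.48 in females (SE 0.0842, adjusted p = 0.00147), and the groups overlapped in males only. Without the B cell-rich arrays the male difference was -0.28 with an adjusted p of 0.0555. *Cd14*, a co-receptor for bacterial lipopolysaccharide, went the other way. It rose in BPH/2J males by 0.34 (SE 0.0913, adjusted p = 0.0235), with 6.51 to 7.05 in BPN/3J and 6.88 to 7.26 in BPH/2J. The male call of *Cd14* was lost in 5 of 16 alternatives, among them the methods' t-test and leaving out 1 array. In females its difference was 0.26 (SE 0.085, adjusted p = 0.0564). The scavenger receptors of tissue macrophages gave no call between strains, and *Mrc1*, *Cd163* and *Msr1* differed by 0.12, 0.09 and 0.05 in males and by -0.04, -0.05 and -0.07 in females, all short of the threshold.

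Of the 4 phagocyte oxidase genes only *Cybb* passed. *Cybb* encodes the catalytic subunit of the phagocyte NADPH oxidase, and *Cyba*, *Ncf1* and *Ncf4* encode its membrane partner and cytosolic subunits. *Cybb* was 8.74, 8.88 and 8.99 (lowest, median, highest) in BPN/3J males and 8.26, 8.35 and 8.49 in BPH/2J males. In females it was 8.69, 8.86 and 9.07 in BPN/3J and 8.11, 8.49 and 8.62 in BPH/2J, so that the strains did not overlap in either sex. The difference was -0.51 in males (SE 0.0514, adjusted p = 1.14e-05 in limma) and -0.42 in females (SE 0.0903, adjusted p = 0.00603). Its partners differed by no more than 0.11 in size in either sex: *Cyba* by 0.04 and 0.11, *Ncf1* by -0.01 and -0.06, and *Ncf4* by -0.10 and 0.03, in males and females.

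The 3 chains of complement C1q, the recognition molecule of the classical pathway that macrophages secrete, gave calls for *C1qb* and *C1qc* and none for *C1qa*. *C1qb* was 8.94, 8.98 and 9.20 (lowest, median, highest) in BPN/3J males and 8.49, 8.60 and 8.87 in BPH/2J males. In females it was 8.999, 9.173 and 9.525 in BPN/3J and 8.42, 8.66 and 8.97 in BPH/2J. The strains did not overlap in either sex. The difference was -0.36 in males (SE 0.0701, adjusted p = 0.00282 in limma) and -0.54 in females (SE 0.118, adjusted p = 0.00699). *C1qc* was 7.92, 8.11 and 8.32 against 7.52, 7.82 and 8.13 in males and 7.91, 8.37 and 8.77 against 7.51, 7.87 and 8.04 in females. It fell by 0.34 in males (adjusted p = 0.0372) and by 0.56 in females (adjusted p = 0.0152), with overlap in each sex. Its male call was lost without the B cell-rich arrays (-0.20, adjusted p = 0.271) and in 10 of 16 alternatives in all. Among these were the methods' t-test, 1 fit to all 24 arrays and leaving out 1 array. Its female call was lost without the liver-rich arrays (-0.51, adjusted p = 0.0719). *C1qa*, whose protein joins the other chains in equal number, had a mean of 7.59 in BPN/3J males, 7.49 in BPH/2J males, 7.83 in BPN/3J females and 7.67 in BPH/2J females. Its differences of -0.10 and -0.16 did not pass (adjusted p = 0.507 and 0.364).

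**Figure D3:**
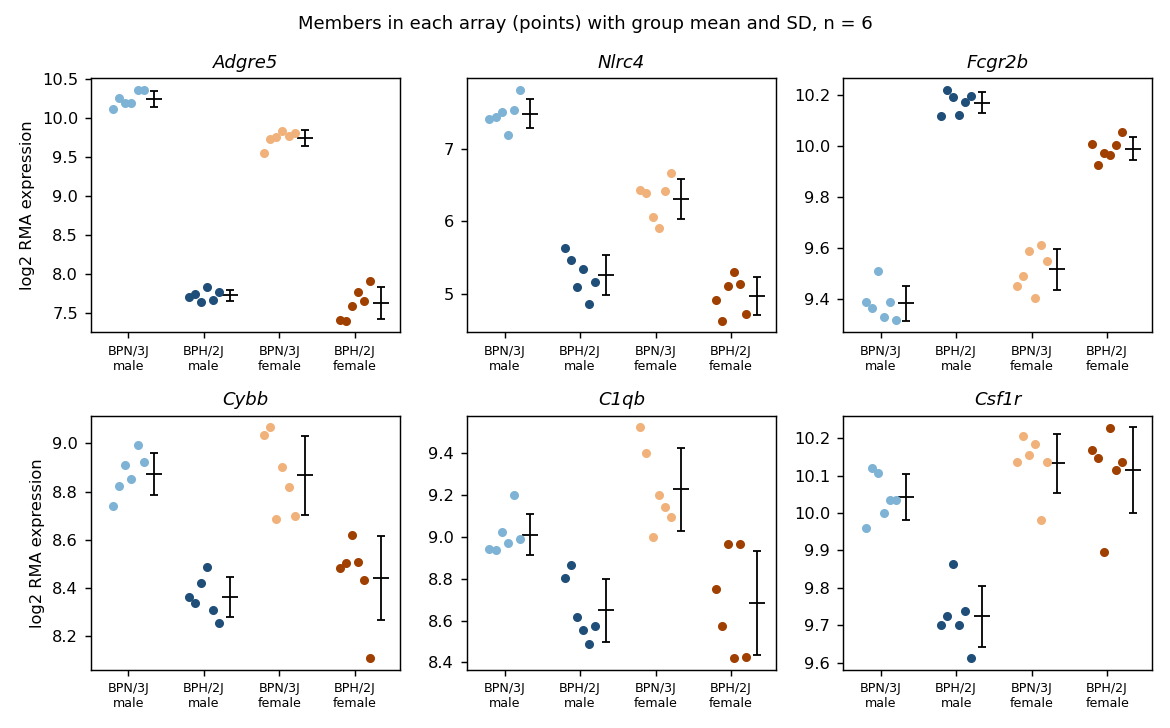
Log2 RMA expression in each array (points) of the 4 groups, with the group mean and SD (bars, n = 6), for *Adgre5*, *Nlrc4*, *Fcgr2b*, *Cybb*, *C1qb* and *Csf1r*. The strains are apart in both sexes for the first 5 genes, while *Csf1r* is low in the BPH/2J males alone (9.61 to 9.87).

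The 4 genes of lysosomes, lysozyme and effectors gave 2 calls, both in males. *Mpeg1*, the pore-forming perforin-2 of macrophages, was 7.81, 8.02 and 8.17 in BPN/3J males and 7.24, 7.51 and 7.65 in BPH/2J males, a difference of -0.50 (SE 0.0753, adjusted p = 0.000384 in limma) with no overlap. In females it was 7.43, 7.97 and 8.19 against 7.36, 7.48 and 7.89, and the difference of -0.37 did not pass (adjusted p = 0.0925). *Ctss*, the cathepsin that trims the invariant chain, differed by -0.29 in males (adjusted p = 0.026) and by -0.30 in females (adjusted p = 0.14). The standard error of *Ctss* was larger in females, 0.124 against 0.0812. Its male call was lost without the B cell-rich arrays (-0.28, adjusted p = 0.0649) and in 7 of 16 alternatives in all, among them the methods' t-test and leaving out 1 array. The lysozyme gene *Lyz2* spread from 8.87 to 10.22 in BPN/3J females, and its differences of 0.08 and -0.17 did not pass. *Aif1*, the actin-binding IBA1 of macrophages, differed by -0.23 in males (adjusted p = 0.148) and 0.02 in females.

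At the stricter Bonferroni threshold used in the study's methods, 4 members remained in males (*Adgre5*, *Nlrc4*, *Fcgr2b* and *Cybb*) and 3 in females (*Adgre5*, *Nlrc4* and *Fcgr2b*). The share of all probe sets past it was 2.56% in males and 2.36% in females. Groups without overlap were seen for 7 lower members and 1 higher member in males, where 4.95% and 4.7% of all probe sets were apart in those directions. In females 5 members were lower without overlap and 1 was higher, against 4.34% and 4.99% of all probe sets.

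Sex differences were read within each strain. In BPH/2J, 5 of the 34 were higher in females and 2 lower in limma at an adjusted p under 0.05, where 15.6% and 13.4% of all probe sets were higher and lower. In BPN/3J, 4 were higher and 4 lower, where 14.4% and 14.8% of all were. The medians over the 34 were -0.00 in BPH/2J and 0.01 in BPN/3J. The share called was thus at or below that of all probe sets in each direction.

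*Irf8*, *Mrc1* and *Cyba* differed by sex the same way in both strains. *Irf8* lay at 8.55 to 8.82 (males) and 8.86 to 9.09 (females) in BPH/2J, and at 8.48 to 8.78 and 8.88 to 9.13 in BPN/3J, with no overlap in either strain. It was higher in females by 0.29 in BPH/2J (SE 0.0561, adjusted p = 0.00173 in limma) and by 0.34 in BPN/3J (SE 0.057, adjusted p = 0.000592). *Mrc1*, the mannose receptor, was higher in females by 0.29 (adjusted p = 0.04) and 0.45 (adjusted p = 0.0134). Without the liver-rich arrays the BPN/3J difference of *Mrc1* was 0.27, with an adjusted p of 0.031. Without the B cell-rich arrays neither *Mrc1* difference passed (0.25, adjusted p = 0.117, and 0.49, adjusted p = 0.0501). The BPH/2J call of *Mrc1* was lost in 11 of 16 alternatives, among them the methods' t-test and leaving out 1 array. *Cyba* fell by 0.15 (adjusted p = 0.0025) and 0.22 (adjusted p = 0.000447) in females, again without overlap. 

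The remaining sex calls passed in 1 strain only or changed sign. In BPH/2J, *Csf1r* was higher in females by 0.39 (SE 0.0572, adjusted p = 0.000174 in limma), *Adgre1* by 0.19 (adjusted p = 0.0156) and *C1qa* by 0.18 (adjusted p = 0.0415). In BPN/3J, *Nlrc4* differed by -1.17 (SE 0.126, adjusted p = 1.31e-05), *Adgre5* differed by -0.50 (SE 0.0575, adjusted p = 2.23e-05), *Itgax* by -0.31 (adjusted p = 0.0044) and *Cd14* by 0.29 (adjusted p = 0.028). In the other strain these genes kept their direction and did not pass. In BPN/3J, *Csf1r* differed by 0.09, *Adgre1* by 0.33 and *C1qa* by 0.24. In BPH/2J, *Nlrc4* differed by -0.29, *Adgre5* by -0.11, *Itgax* by -0.05 and *Cd14* by 0.21. The interaction did not pass for *Adgre1*, *C1qa*, *Cd14* or *Itgax* (adjusted p between 0.326 and 0.912 in limma). *Fcgr2b* fell by 0.18 in BPH/2J females (adjusted p = 0.00141) and rose by 0.13 in BPN/3J females (adjusted p = 0.0499). With the hepatocyte and adrenal means as covariates, the BPH/2J differences of *Adgre1* (0.18, adjusted p = 0.075), *Mrc1* (0.14, adjusted p = 0.343) and *C1qa* (0.13, adjusted p = 0.269) and the BPN/3J difference of *Cd14* (0.25, adjusted p = 0.0845) did not pass. *C1qa* lost its call in 12 of 16 alternatives, among them the fit without the B cell-rich arrays (0.17, adjusted p = 0.0825). *Cd14* also lost its call without the liver-rich arrays (0.30, adjusted p = 0.0565). Without those arrays 7 members were called for sex in BPN/3J, 6 of them also called with all arrays. The BPN/3J rise of *Fcgr2b* was 0.12 without the liver-rich arrays (adjusted p = 0.149) and 0.13 without the B cell-rich arrays (adjusted p = 0.142). Adrenal cortex genes had a higher mean in females of each strain, with wide spread between arrays (SD 1.04 to 2.09 within groups). Their link to these members was not tested. The median difference over the 9 measured was 2.00 in BPH/2J, with 2 called higher in females, and 1.49 in BPN/3J, with none called.

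**Figure D4:**
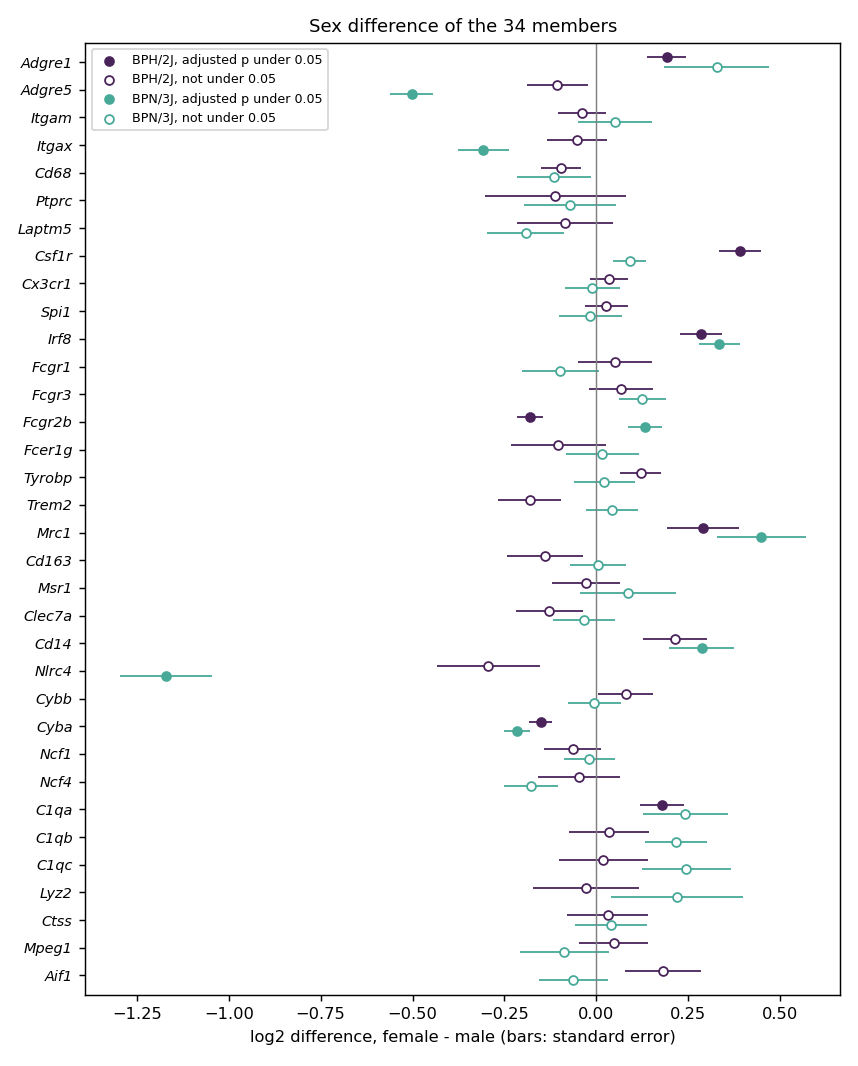
Sex difference of each of the 34 members, with the log2 difference female minus male on the horizontal axis, points for BPH/2J (purple) and BPN/3J (green), bars for the standard error, and filled points where the adjusted p was under 0.05. *Nlrc4* and *Adgre5* are low in BPN/3J females (-1.17 and -0.50), *Csf1r* is high in BPH/2J females (0.39), and most other points lie within 0.25 of no difference.

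The strain effect itself differed by sex for 4 of the 34 members, 11.8% of them against 1.76% of all probe sets, in a limma fit to all 24 arrays. *Nlrc4* had the largest interaction, 0.88 (SE 0.198, adjusted p = 0.0178), with a strain difference of -2.22 in males and -1.35 in females. *Adgre5* had an interaction of 0.40 (SE 0.103, adjusted p = 0.0462), from -2.52 to -2.12. *Csf1r* had 0.30, given above, and *Fcgr2b* had -0.31 (SE 0.055, adjusted p = 0.00166), from 0.79 to 0.47. For *Nlrc4*, *Adgre5* and *Fcgr2b* the strain difference was smaller in females and kept its direction. Without the B cell-rich arrays the interactions of *Nlrc4* (0.80, adjusted p = 0.132) and *Adgre5* (0.33, adjusted p = 0.201) did not pass. Without the liver-rich arrays those of *Adgre5* (0.40, adjusted p = 0.0945) and *Csf1r* (0.28, adjusted p = 0.058) did not. With the hepatocyte and adrenal means as covariates that of *Csf1r* was 0.27 (adjusted p = 0.0595).

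The ligands and partners of the members were counted from lists. Beside these and the later list counts stand the shares of all probe sets. They were 7.48% higher and 7.7% lower in BPH/2J in males, and 8.01% and 6.48% in females. The *Csf1r* ligand *Csf1* did not pass the strain test in either sex, with differences of -0.03 and 0.00. The other ligand, *Il34*, was named after its values were seen. *Il34* had a mean of 9.06 ± 0.22 in BPN/3J males, 8.44 ± 0.19 in BPH/2J males, 7.17 ± 0.26 in BPN/3J females and 7.43 ± 0.13 in BPH/2J females (SD, n = 6). It fell by 0.63 in BPH/2J males (SE 0.108, adjusted p = 0.00118 in limma) and differed by 0.25 in females (adjusted p = 0.161), an interaction of 0.88 (SE 0.161, adjusted p = 0.00255). In males *Il34* and *Csf1r* were both lower in BPH/2J, and in females neither passed. By sex they went opposite ways. The *Il34* mean was lower in females of each strain, and *Csf1r* was higher in females, by 0.39 in BPH/2J and by 0.09, short of the threshold, in BPN/3J. A link between them was not tested. Of 16 measured growth factor and regulator genes, 1 rose and 2 fell in males and 1 rose and 1 fell in females. *Runx1*, a transcription factor of blood development, rose in both, by 0.21 and 0.26.

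*Cd55*, the complement regulator bound by the *Adgre5* product, was also named after its values were seen. Its mean was 6.51 ± 0.20 in BPN/3J males and 7.80 ± 0.12 in BPH/2J males, and 7.08 ± 0.21 and 7.03 ± 0.18 in the females of the same strains (SD, n = 6). It rose by 1.29 in BPH/2J males (SE 0.0867, adjusted p = 1.94e-07 in limma) and differed by -0.05 in females (adjusted p = 0.808). The strain effects differed by -1.34 (SE 0.141, adjusted p = 1.84e-06). In males the receptor was low and this ligand high in BPH/2J, and in females the receptor alone was low. Of the 15 measured *Adgre5* ligands and related adhesion receptors, 6 rose and 2 fell in males and 6 rose and 1 fell in females. *Adgrf1* rose by 0.46 and 0.62, *Adgra3* by 0.50 and 0.45, and *Adgrl1* fell by 0.55 and 0.38.

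Of 11 measured *Nlrc4* inflammasome partners, none passed in males and 2 (*Naip2* and *Naip5*) rose in females. *Naip5*, a flagellin sensor upstream of *Nlrc4*, was named after its values were seen and had a mean of 5.43 in BPN/3J and 5.68 in BPH/2J males, and of 5.35 and 5.97 in the females. It rose by 0.63 in BPH/2J females (SE 0.12, adjusted p = 0.00296 in limma), and its difference of 0.25 in males did not pass (adjusted p = 0.225). The NAIP genes are a multigene family, and signal from near-identical copies may be shared. The oxidase genes outside the set gave 1 fall in males among 9 measured and no call in females.

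Other myeloid pathways held calls in both directions. Of all probe sets, 7.48% were higher and 7.7% lower in males, and 8.01% and 6.48% in females. Of 20 pattern recognition receptors, 3 rose and 6 fell in males and 4 rose and 3 fell in females. *Tlr1* rose by 0.71 and 1.06 and *Tlr6* by 0.67 and 1.02 in males and females (adjusted p between 9.81e-07 and 0.000309 in limma). They encode partners of TLR2 in lipopeptide sensing, and as related neighbours they may share signal. *Ly86*, which encodes the MD-1 partner of RP105, fell by 0.41 and 0.53. Among 18 Fc receptor and ITAM signalling genes, 2 fell in males, and 2 rose and 1 fell in females. *Fcgrt*, the neonatal Fc receptor that recycles antibody and albumin, fell by 0.60 and 0.46.

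Of 17 chemokines and chemokine receptors, 1 rose and 3 fell in males and 4 rose and 1 fell in females. *Ccl6*, a macrophage chemokine, fell by 0.38 and 0.57. Among 16 integrin and leukocyte adhesion genes 2 rose and 2 fell in males and 2 rose in females. *Icam1*, the endothelial ligand of leukocyte integrins, rose by 0.21 and 0.19. Among 19 lysosome and phagocytosis genes 4 rose and 2 fell in males and 2 rose and 4 fell in females. *Gas6*, a ligand of the TAM receptors that mediates uptake of dying cells, rose by 1.76 and 1.73 (adjusted p = 3.36e-12 and 7.54e-11). The cathepsins *Ctsl* and *Ctsc* fell by 0.34 and 0.20 in males and by 0.33 and 0.41 in females.

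Markers of other immune cells were read beside the members and the same shares of all probe sets. Their part in the members' differences was not tested. Of 6 measured MHC class II genes, shared by macrophages, dendritic cells and B cells, 5 fell in males and 2 in females, with *H2-Ab1* lower by 0.87 and 0.54 and *H2-DMa* by 0.60 and 0.43. Of 8 dendritic cell genes 3 fell in males and 1 in females. *Cd209a*, a lectin of dendritic cells and some macrophages, fell by 0.81 and 0.56. No T cell gene (0 of 12), B cell gene (0 of 8) or neutrophil gene (0 of 10) passed the strain test in limma in either sex. Of 9 natural killer cell genes 1 rose and 2 fell in males and 1 rose in females, and the granzyme gene *Gzma* rose by 0.57 and 0.37. Of 7 mast cell genes 2 rose in males and 3 in females, with the protease gene *Cpa3* at 0.32 and 0.43. *Folr2*, a folate receptor of resident macrophages kept here in the Kupffer cell list, rose by 0.86 and 0.74 and was the only one of those 6 genes that passed, in either sex. The mean over the 8 dendritic cell genes was 6.49 to 6.66 in BPN/3J males and 6.14 to 6.46 in BPH/2J males, and 6.28 to 6.49 and 6.17 to 6.32 in females. The mean over the 10 neutrophil genes was 5.24 to 5.31 and 5.22 to 5.32 in males and 5.11 to 5.22 and 5.12 to 5.28 in females.

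Lists of non-immune tissue were counted in the same way, against 7.48% and 7.7% of all probe sets higher and lower in males and 8.01% and 6.48% in females. Of 23 hepatocyte genes, whose mean ran from 6.83 to 11.77, 1 rose and 1 fell in males and 3 fell in females, and of 9 adrenal cortex genes none passed for strain, although single arrays ran from 5.42 to 9.91 over that list. *C8a*, the complement gene kept in the hepatocyte list, fell by 0.38 and 0.58. Of 8 proximal tubule genes 1 fell in each sex, of 8 adipocyte genes 1 fell in males and 4 rose in females, with *Ucp1*, the uncoupling protein of brown fat, at 3.50. Of the 2 measured red cell genes *Slc4a1* rose in each sex, by 0.22 and 0.19, and *Alas2* fell by 0.87 in females (adjusted p = 0.00294) and differed by -0.01 in males. *Ucp1* and *Alas2* were named after their values were seen.

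The chromosomal neighbours of the members with the clearest strain differences were looked up in the order of RefSeq genes measured on the array, after the values had been seen. Beside *Adgre5* on chromosome 8, *Ddx39a* differed by -0.07 and -0.05 in males and females. On the other side *Adgrl1* differed by -0.55 and -0.38 (adjusted p = 7.92e-07 and 4.31e-05 in limma), and *1700067K01Rik*, 3 genes away, by -0.74 and -0.69. Beside *Nlrc4* on chromosome 17, *Slc30a6* differed by -0.30 and -0.48 (adjusted p = 0.000199 and 9.19e-06 in limma) and *Yipf4* by -0.06 and -0.03. Beside *Fcgr2b* on chromosome 1, neither *Fcrla* (0.13 and 0.16) nor *Fcgr4* (-0.12 and 0.13) passed, and *Cfap126*, 3 genes away, differed by -2.14 and -1.86. Beside *Cybb* on chromosome X, *Xk* differed by 0.01 and 0.15 and *Dynlt3* by 0.12 and 0.19 (adjusted p = 0.0437 and 0.00467 for *Dynlt3* in limma). The nearest measured genes on either side of these 4 members differed by 0.55 or less in size.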

How the data were processed

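Kidneys of 24 mice were measured on Affymetrix GeneChip Mouse Gene ST arrays, in 4 groups of 6. Values deposited by the authors are log2 expression after RMA normalisation, for 28853 probe sets, between 2.12 and 14.55, which were used unchanged. No source used here gives the RMA version. Of the probe sets, 21159 (73.3%) carried 1 gene symbol, 1881 several and 5813 none. Arrays give no read depth, and their number limits the precision. Strain and sex differences were fitted with limma 3.58.1 (R 4.3.3) to the 12 arrays of a comparison, and the strain-by-sex interaction to all 24. A call needed an adjusted p (Benjamini-Hochberg, all probe sets) under 0.05, and the fits were first tested on simulated data. Figures and promoter windows were made in Python 3.11.15.

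The members and the gene lists (286 listed genes, 260 measured, in 23 lists) were chosen with earlier results of these data known. Named were members past a Bonferroni threshold in a strain comparison or called for the interaction, the 5 largest calls per strain or sex comparison, *Adgre1*, *Csf1r*, *Cd68*, *Ptprc*, *Itgam*, *Lyz2* and *C1qa*, and up to 3 genes per list called the same way in both sexes. The other members are given with their differences. The alternatives covered the test, the threshold, a filter on dim probe sets, the normalization, the samples fitted, covariates and a replicate block.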

Additional observations from a re-analysis of the deposited data

Results flagged for a closer look

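In 12 of the 136 groups of 6 arrays (34 genes in 4 groups), 1 array stood apart, with a gap to its nearest neighbour above Dixon's critical share of the group's range. Chance gives about 6.8 such groups. The arrays were *Adgre5* in BPN/3J female 1 at 9.549, *Ptprc* in BPH/2J male 4 at 8.363, *Csf1r* in BPN/3J female 5 at 9.982 and in BPH/2J female 3 at 9.896, and *Cx3cr1* in BPH/2J female 5 at 7.376. They also included *Fcgr2b* in BPN/3J male 3 at 9.509, *Trem2* in BPN/3J female 3 at 6.248 and in BPH/2J female 5 at 6.028, and *Cd163* in BPN/3J male 3 at 4.681. The last were *Clec7a* in BPH/2J male 4 at 5.783, *Cybb* in BPH/2J female 6 at 8.11 and *C1qb* in BPN/3J male 5 at 9.203. Of these arrays, BPN/3J female 1, BPH/2J male 4, BPH/2J female 3 and BPN/3J male 5 were among the 5 richest in B cell genes, and BPN/3J female 5 was rich in hepatocyte genes.

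The strain difference differed between males and females, by the interaction in limma, for *Adgre5* (0.40), *Csf1r* (0.30), *Fcgr2b* (-0.31) and *Nlrc4* (0.88).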

How the results depend on the processing

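A sequence variant under a probe, the share of macrophages in the tissue and the blood pressure of the strain are limits that no alternative addressed, and dim probe sets, *Nlrc4* among them, have less signal over background. The cause of the changes below was not tested. With the Bonferroni threshold the members called were 4 and 3 for strain in males and females, 0 and 2 for sex in BPH/2J and BPN/3J, and 0 for the interaction. At an unadjusted p under 0.05 limma gave 8 for sex in BPH/2J and 5 for the interaction. With a 1.5-fold difference in addition they were 3, 2, 0, 1 and 1. For sex in BPH/2J, 4 were called after a shift to a common median, 4 in 1 fit to all 24 arrays and 4 with the hepatocyte and adrenal means as covariates, against 7. For the interaction, 2 were called without the BPN/3J female arrays 2 and 5, and 2 without the 5 B cell-rich arrays, an alternative chosen after seeing the data, against 4. Without 1 array the counts were 10 to 14 and 7 to 10 for strain in males and females, 5 to 8 and 6 to 10 for sex in BPH/2J and BPN/3J, and 2 to 4 for the interaction, with 2 without BPN/3J male 2, BPH/2J male 6 or BPH/2J female 4. The medians then lay between -0.12 and -0.06, -0.10 and -0.03, -0.06 and 0.02, -0.01 and 0.04, and -0.07 and 0.02. Replicate numbers were shared between groups, and the main fits treated the arrays as unpaired. The labels do not say what the numbers mark, and this was not tested. Same-numbered arrays correlated between -0.27 and 0.02 in males and between -0.57 and 0.34 in females (4 of 6 pairs over 0.1). Between the sexes they correlated between -0.13 and 0.17 in BPH/2J and between -0.34 and 0.44 in BPN/3J. With the replicate block 11, 8, 5, 8 and 3 members were called. Among the named calls, *Clec7a* (adjusted p = 0.0521) and *C1qc* (0.0915) in males, *Adgre1* in females (0.0549), *Adgre1* (0.0657) and *C1qa* (0.103) by sex in BPH/2J and the *Csf1r* interaction (0.0571) did not pass with the block, so that 4 of the 7 genes that fell in both sexes did so with it. Each array correlated best with its own number in 0, 4, 0 and 2 of 6 pairs. Only differences near 0 changed sign. *Cd68* in males was 0.0035 with the covariates, 0.027 without the B cell-rich arrays and -0.049 to 0.030 without 1 array, and in females -0.058 to 0.058. *Itgam* in females was -0.0082 after quantile normalization, -0.029 with the covariates, -0.039 without arrays 2 and 5 and -0.063 to 0.072 without 1 array. *Csf1r* in females was 0.026 without the B cell-rich arrays and -0.048 to 0.026 without 1 array. Of the values of single genes under an alternative, 670 were marked as keeping their direction and side of the threshold. A further 137 were marked as losing the call, 3 as gaining one and 14 as changing sign. Leaving out 1 array was entered as the lowest and the highest value of its range, under a shared mark. Some of the 14 were thus range ends that kept the sign. The tallies of alternatives given for single genes count leaving out 1 array the same way.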
